A study of Homo sapiens with 16 samples.

Results

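RBM24 and RBM38 are paralogous RNA-binding proteins, each built around a single RNA recognition motif. They are 2 of the 26364 genes in the count tables of a bulk RNA-seq time course. RBM24 was chosen from these same libraries for its large increase from 0 h to 2 h, and RBM38 was taken because it is the nearest paralog. The contrasts of RBM24 that use the 0-h or 2-h libraries are therefore given as a description with no test. The 8-h against 4-h contrast of RBM24 and all contrasts of RBM38 were tested.

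RBM24 is best known from heart and skeletal muscle, where it regulates the alternative splicing and the stability of muscle mRNAs. RBM38, also called RNPC1, binds AU-rich or U-rich elements in mRNAs such as CDKN1A, TP63 and MDM2 and changes their stability or translation. RBM24 shares part of this target set. Estrogen acts through the estrogen receptor, a transcription factor that binds palindromic estrogen response elements.

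The cells were Ishikawa, a human endometrioid adenocarcinoma line, and T-47D, a human ductal carcinoma line of the breast. Both lines were kept in phenol-red-free medium with charcoal-stripped serum, for 3 days by the labels and for longer by the study's methods, and then received 10 nM 17β-estradiol (E2) for 2, 4 or 8 h, or vehicle (0 h). Each line had 4 time points with 2 replicates, which gave 8 libraries per line and 16 in all. Nothing in the labels says whether replicates came from separate cultures, so p-values measure the spread between these libraries, which may be technical.

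Library totals ranged from 41177912 to 58918642 counts in Ishikawa cells and from 41223813 to 64148903 in T-47D cells. All 5 epithelial markers (EPCAM, CDH1, KRT8, KRT18 and KRT19) reached a mean level of 1 CPM, counts scaled to a common library size, in both lines. The endometrial markers PAX8, EMX2 and SOX17 summed to between 339 and 465 CPM in Ishikawa cells and to at most 0.0485 CPM in T-47D cells. The 4 luminal breast markers ESR1, GATA3, FOXA1 and PGR summed to between 200 and 260 CPM in Ishikawa cells, where only GATA3 had a mean under 1 CPM. In T-47D cells, they summed to between 2396 and 3155 CPM. The fibroblast markers COL1A1, COL1A2, COL3A1, DCN and LUM summed to between 157 and 284 CPM in Ishikawa cells and between 76.0 and 101 CPM in T-47D cells. The leukocyte and endothelial markers each summed to at most 8.64 CPM. The late Ishikawa libraries did not group by their labels. The 4-h replicate 2 library lay closest to 8-h replicate 1 (r = -0.17 between deviations from the late mean over 15787 genes) and 4-h replicate 1 lay closest to 8-h replicate 2 (r = -0.27), against r = -0.43 and r = -0.35 for the pairs that share a label. In T-47D cells, the pairs that share a label were the closest (r = -0.14 and r = -0.25). The labels were kept, and values with 4 h and 8 h as 1 group are given where they change a call.

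Both genes lie on the forward strand. RBM24 (ENSG00000112183) spans chr6:17281592-17294102 (GRCh37) with 8 annotated transcripts and 3425 exon bases. RBM38 (ENSG00000132819) spans chr20:55966452-55984389 (GRCh37) with 5 transcripts and 2697 exon bases. The coding sequences of their canonical transcripts are 711 and 720 bases long and matched at 75.3% of 640 aligned positions. The most alike window of 150 coding bases, at positions 11 to 160 of RBM24 and 80 to 229 of RBM38, is shown because it bears on whether reads of one gene could be counted for the other, and capitals mark the bases that differ:
RBM24: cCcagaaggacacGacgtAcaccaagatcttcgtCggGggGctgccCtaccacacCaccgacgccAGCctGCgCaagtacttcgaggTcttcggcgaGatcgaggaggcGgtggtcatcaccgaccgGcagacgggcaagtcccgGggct
RBM38: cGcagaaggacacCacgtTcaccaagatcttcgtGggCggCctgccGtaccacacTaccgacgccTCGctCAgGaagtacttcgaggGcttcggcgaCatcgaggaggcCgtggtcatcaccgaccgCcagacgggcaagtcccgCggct

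Even in this window, 131 of 150 bases matched. The longest run shared by any RBM24 and any RBM38 transcript was aaggccaacgtgaacctggcata, 23 bases, so a read longer than that held at least 1 base that told the paralogs apart. RBM24 overlaps the gene ENSG00000287559 by 64 bases, and RBM38 overlaps RBM38-AS1 by 1667 bases. Neither of these has a row in the tables. The library kit marks strand, but the sources used here do not say whether the counting used it.

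A full estrogen response element was searched as GGTCA and TGACC separated by any 3 bases, a pattern that reads the same on both strands, and occurs 2194 times in GRCh37. The element nearest to each gene's start is shown with 8 flanking bases on each side and the 2 half-sites in capitals, at chr6:18004507-18004535 for RBM24 and at chr20:56036315-56036343 for RBM38:
nearest to RBM24: gagccagaGGTCAgggTGACCgagatgga
nearest to RBM38: atggggtgGGTCActcTGACCtcttgatt

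Both elements lie outside annotated genes, 723 kb from the start of RBM24 and 69.9 kb from the start of RBM38. Of 16380 tested genes with a position, 69.8% had an element at least as near as that of RBM24, 12.4% one at least as near as that of RBM38, and 8.94% had one within 50 kb. Of the pair, RBM24 had the more distant element. A match of these letters is not evidence of binding, and degenerate elements were not searched.

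In Ishikawa cells, RBM24 went from almost no reads to a low level. The 0-h libraries held 2 and 4 RBM24 counts, the 2-h libraries 85 and 133, the 4-h libraries 75 and 150, and the 8-h libraries 154 and 141. Every treated library held more RBM24 counts than either 0-h library, with no overlap. The choice of RBM24 favors this at 2 h, and the share of all genes that separate so was not counted. Scaled to library size, the level was 0.0647 ± 0.0300 CPM at 0 h, 2.22 ± 0.301 at 2 h, 2.75 ± 1.25 at 4 h and 2.92 ± 0.427 at 8 h (mean ± SD, n = 2). Even after E2 the level stayed under 4 CPM, and the 2 libraries of 4 h, at 1.86 and 3.63 CPM, spanned all other treated libraries. In bulk RNA, more cells expressing RBM24 and more RNA per cell cannot be told apart.

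The size of this change is set by very few 0-h counts. The summed counts at 2 h and 0 h were 218 and 6, a depth-corrected ratio of 34.7 with an exact 95% interval of 15.7 to 95.6. Between 71.2% and 74.6% of all counts from 1 to 10 were even numbers in each library, so that 1 fragment may have been counted as 2. With counts divided by 2, the ratio was 35.0 and its interval widened to between 11.7 and 172. These intervals cover counting error only. They do not allow for the choice of RBM24 by its rise at 2 h, so they are a description and not a test. The fitted log2 fold changes were 5.05 (SE 0.49) at 2 h, 5.35 (SE 0.48) at 4 h and 5.43 (SE 0.47) at 8 h. At each time RBM24 ranked 7 of the 15787 genes tested in Ishikawa cells by log2 fold change. The choice of RBM24 by its rise at 2 h favors such a rank, and every contrast shares the same 0-h libraries. By a rule set after its values were seen, of at most 5 counts in both 0-h libraries and at least 50 in both 2-h libraries, RBM24 was the 1 gene of 26364 that qualified in Ishikawa cells.

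In T-47D cells, RBM24 was already expressed without hormone and was about 4-fold higher after E2. The 0-h libraries held 262 and 216 counts, the 2-h libraries 1072 and 900, the 4-h libraries 1451 and 1196, and the 8-h libraries 1238 and 1269. In CPM, untreated cells were at 5.89 and 5.24, and treated cells at 22.3 and 21.1 (2 h), 22.6 and 23.0 (4 h), and 24.8 and 25.4 (8 h). All 6 treated libraries lay above both 0-h libraries, which the choice of RBM24 favors at 2 h. The share of all genes that separate so was not counted, so this is a description. The replicates of a time point lay close together. The log2 fold changes were 1.96 (SE 0.09), 2.03 (SE 0.09) and 2.17 (SE 0.09) at 2, 4 and 8 h, which ranked 74, 76 and 79 of 15594 genes. The choice of RBM24 favors these ranks too. The count ratio at 2 h was 3.90, with an exact 95% interval of 3.53 to 4.32, or 3.38 to 4.51 with counts divided by 2. These intervals too cover counting error only and do not allow for the choice of RBM24. The off-to-on rule named KRT13, LINC01016 and GATA4 in T-47D cells. They went from at most 5 counts at 0 h to between 65 and 220 at 2 h, and RBM24 did not qualify there because of its 0-h level.

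**Figure D1:**
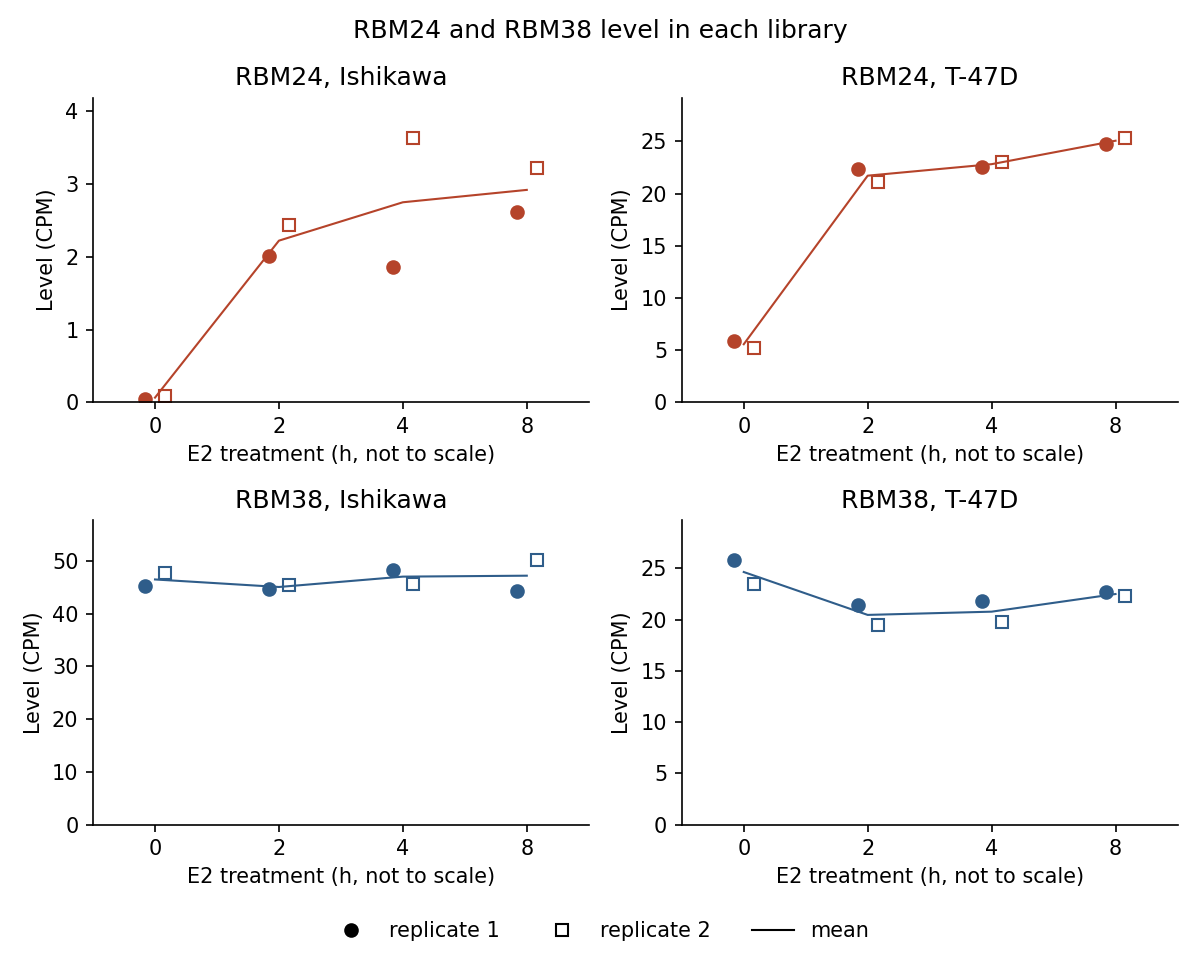
RBM24 (top) and RBM38 (bottom) level in CPM in each of the 16 libraries, by hours of E2, with filled circles for replicate 1, open squares for replicate 2 and a line through the means. RBM24 was near 0 in both 0-h Ishikawa libraries and between 21.1 and 25.4 CPM in every treated T-47D library, while RBM38 stayed between 44.2 and 50.2 CPM in all Ishikawa libraries.

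Most of the difference was present at the first time point in both lines. In Ishikawa cells, the mean RBM24 level at 2 h had covered 75.6% of the distance from 0 h to 8 h, and that at 4 h 94.0%. In T-47D cells, these shares were 82.8% and 88.5%. RBM24 was chosen for its rise at 2 h, which favors a high share there, so the shares are a description. The Ishikawa 4-h share rests on libraries at 1.86 and 3.63 CPM. The 8-h against 4-h contrast, which the choice of RBM24 did not use, did not pass the test in either line. The log2 fold change was 0.080 (95% interval -0.51 to 0.67, adjusted p = 0.992) in Ishikawa cells, where 0.0127% of genes were called, and 0.14 (95% interval -0.03 to 0.30, adjusted p = 0.414) in T-47D cells, where 3.42% were called. The wide Ishikawa interval goes with the 75 and 150 counts of the 4-h libraries, and without 4-h replicate 1 or 8-h replicate 2 the value turned to -0.32 or -0.070. Because the late Ishikawa libraries did not group by their labels, the Ishikawa contrast cannot decide whether the level changed between 4 h and 8 h. On the log2 scale, the cell lines differed far more at 0 h than after E2. RBM24 was 6.44 log2 units (95% interval 5.67 to 7.20) higher in T-47D than in Ishikawa cells at 0 h. The Ishikawa 0-h libraries held only 6 counts together. The log2 fold changes of RBM24 were 3.07, 3.31 and 3.26 lower in T-47D cells at 2, 4 and 8 h. These values are a description because they use the 0-h libraries. In mean CPM, the lines lay further apart after E2, at 21.7 in T-47D against 2.22 in Ishikawa cells at 2 h, than at 0 h, at 5.57 against 0.0647. By CPM, a T-47D 0-h library thus held more RBM24 than any Ishikawa library after E2, at 5.24 against at most 3.63. The scaling factors of CPM were set within each line, so CPM compares the lines only approximately. The 2 lines are in separate tables made the same way, and cell line and handling cannot be told apart.

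RBM38 did not follow its paralog. In Ishikawa cells, RBM38 was at 45.2 and 47.8 CPM without E2, at 44.7 and 45.4 CPM after 2 h, at 48.4 and 45.7 CPM after 4 h, and at 44.2 and 50.2 CPM after 8 h. The ranges of treated and untreated libraries overlapped at every time. The log2 fold changes against 0 h were -0.045 (95% interval -0.20 to 0.11, adjusted p = 0.815) at 2 h, 0.016 (-0.14 to 0.18, adjusted p = 0.911) at 4 h and 0.020 (-0.14 to 0.18, adjusted p = 0.873) at 8 h. None passed the test, and 4.35%, 14.3% and 22.1% of all tested Ishikawa genes did at these times. The Ishikawa counts of RBM38 were between 1887 and 2605, and the 3 intervals together run from -0.20 to 0.18.

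In T-47D cells, RBM38 was lower in the treated libraries, but only its 4-h contrast with 0 h passed the test. It was at 25.8 and 23.5 CPM without E2, at 21.5 and 19.5 CPM after 2 h, at 21.8 and 19.8 CPM after 4 h, and at 22.7 and 22.3 CPM after 8 h, from 829 to 1400 counts. All 6 treated libraries lay below both 0-h libraries. The share of all genes that separate in this way was not counted, so this is a description. RBM38 fell at 4 h by 0.25 on the log2 scale (SE 0.08, adjusted p = 0.0394), the 1 contrast of the time course that passed, where 21.5% of tested T-47D genes were called. At 2 h, the log2 fold change was -0.27 (SE 0.08, adjusted p = 0.0505), just outside the threshold, with 9.3% of genes called. At 8 h, it was -0.13 (SE 0.08, adjusted p = 0.251), with 29.7% called, and the 8-h against 4-h value was 0.11 (SE 0.08, adjusted p = 0.546). The 3 comparisons share the same 0-h libraries. The call at 4 h was lost with 4 h and 8 h as 1 group (-0.19, adjusted p = 0.0858) and without 0-h replicate 1 (-0.17, adjusted p = 0.267), 2-h replicate 1 (-0.24, adjusted p = 0.0546), 4-h replicate 1 (-0.31, adjusted p = 0.0573) or 4-h replicate 2 (-0.18, adjusted p = 0.279). At 2 h, the call was gained with the replicate number as a block (adjusted p = 0.0360).

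**Figure D2:**
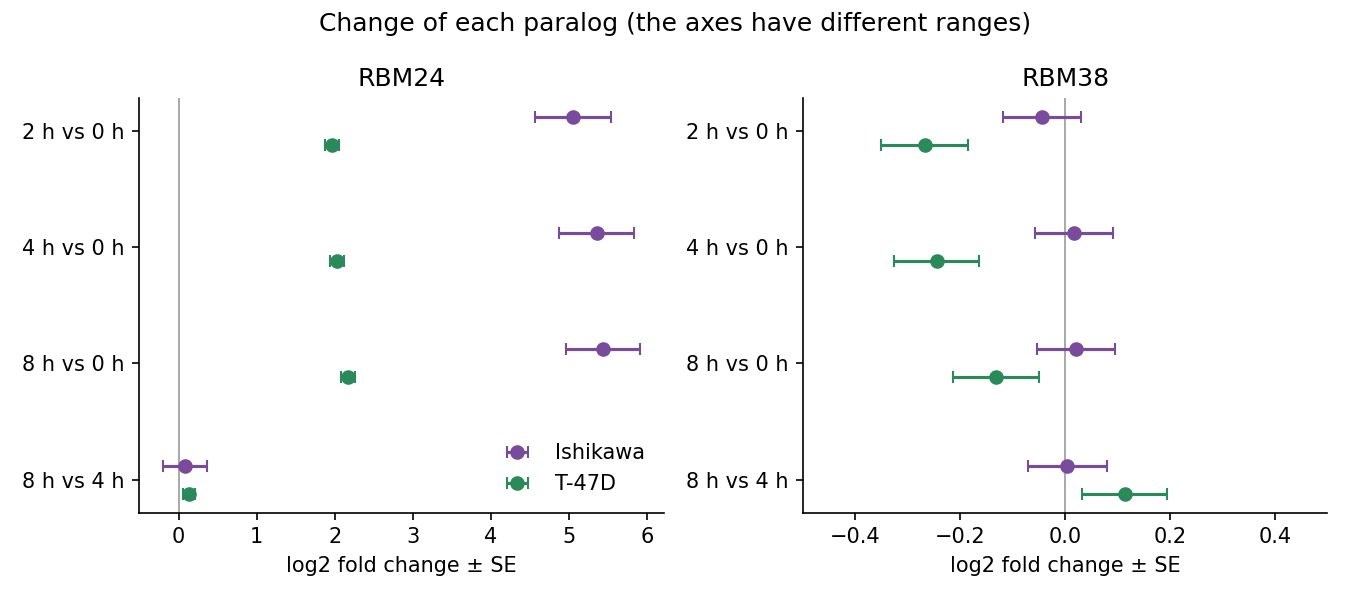
Log2 fold change with its standard error for RBM24 (left) and RBM38 (right) in each contrast, Ishikawa in purple and T-47D in green. The axes differ in range. The RBM24 values against 0 h lie between 1.96 and 5.43, while those of RBM38 lie between -0.27 and 0.020, and the 8 h vs 4 h values run from 0.0039 to 0.14.

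The response of RBM38 was not shown to differ between the lines. The T-47D minus Ishikawa difference in log2 fold change was -0.21 (SE 0.11, adjusted p = 0.591) at 2 h, -0.25 (SE 0.11, adjusted p = 0.240) at 4 h and -0.16 (SE 0.11, adjusted p = 0.454) at 8 h. Of 17090 genes tested, 2.67%, 6.03% and 10% were called at these times. The level at 0 h did differ, with RBM38 lower in T-47D cells by a log2 difference of -0.85 (SE 0.08, adjusted p = 4.11e-09), a comparison in which 81.9% of genes were called.

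Levels of the 2 paralogs can be compared per kilobase of exon. In T-47D cells, RBM24 was at 1.63 ± 0.136 CPM per kb at 0 h and RBM38 at 9.14 ± 0.618 (mean ± SD, n = 2). At 2, 4 and 8 h RBM24 was at 6.34, 6.66 and 7.32 CPM per kb and RBM38 at 7.59, 7.71 and 8.34. The RBM24 share of this pair was 15.2% and 14.9% in the 0-h libraries and between 44.9% and 47.9% in the 6 treated libraries. In Ishikawa cells, the share was 0.0756% and 0.141% at 0 h and between 2.94% and 5.89% after E2. By this measure, RBM38 stayed the more abundant of the pair in all 16 libraries. The order depends on the exon lengths used. In CPM without them, RBM24 was the higher in all 6 treated T-47D libraries, at 25.4 against 22.3 in 8-h replicate 2. Among 37 RBM genes with a level per kb, RBM24 moved from rank 31 at 0 h to rank 18 at 8 h in T-47D cells, and from 34 to 33 in Ishikawa cells. RBM38 ranked 16 to 17 in T-47D cells and 8 to 11 in Ishikawa cells.

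**Figure D3:**
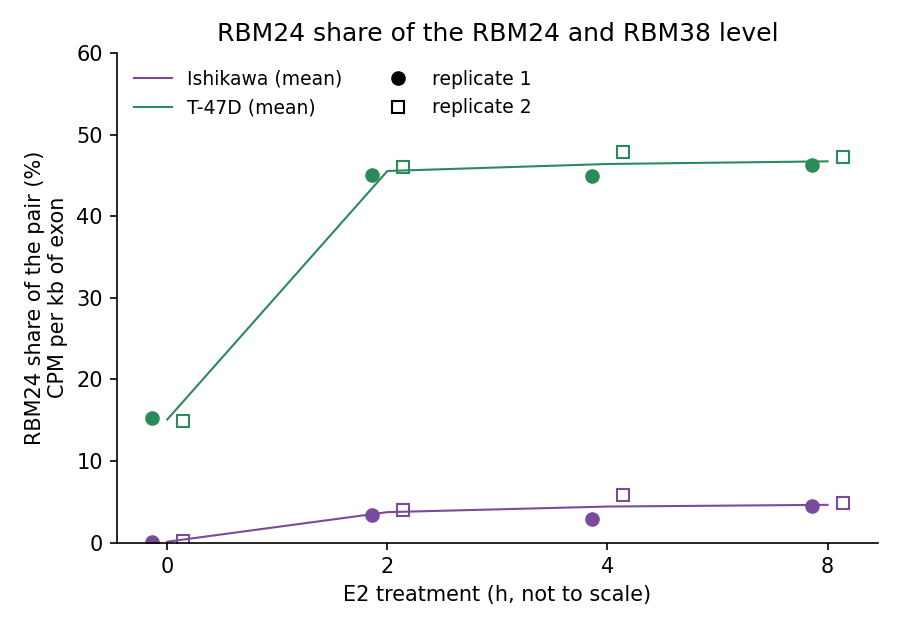
RBM24 as a percentage of the summed RBM24 and RBM38 level, each in CPM per kb of exon, by hours of E2, with filled circles for replicate 1, open squares for replicate 2 and lines through the means. The T-47D libraries moved from about 15% to between 44.9% and 47.9%, and the Ishikawa libraries stayed under 6%.

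The other RBM genes are a family by name only, since many unrelated proteins with an RNA recognition motif carry this symbol. Of 32 tested in Ishikawa cells, edgeR called 0 at 2 h (6 at an unadjusted p under 0.05, and 1 by DESeq2), 3 at 4 h and 7 at 8 h. In T-47D cells, 2 of 34 were called at 2 h, 5 at 4 h and 10 at 8 h. Of all tested genes, 4.35%, 14.3% and 22.1% were called in either direction in the Ishikawa contrasts at 2, 4 and 8 h, and 9.3%, 21.5% and 29.7% in the T-47D contrasts, so the counts of the family were near or below those shares. The median log2 fold change of the family lay between 0.0065 and 0.048 in all 6 contrasts, beside medians of all genes between -0.0094 and 0.0047. RBM47, a splicing and RNA-editing cofactor of epithelial cells, fell in both lines, by 0.38 on the log2 scale at 4 h in Ishikawa cells (adjusted p = 0.00140) and by 0.38 at 8 h in T-47D cells (adjusted p = 3.76e-05). RBM18 rose in Ishikawa cells (0.41 at 8 h, adjusted p = 0.00108) and RBM5, a splicing regulator linked to apoptosis, fell (-0.31, adjusted p = 0.00481). In T-47D cells, RBM11 rose at 4 h (0.49, adjusted p = 0.0211) and RBM48 at 2 h (0.39, adjusted p = 0.0420). RBM25, also called in T-47D cells at 4 h (0.25, adjusted p = 0.000246), is named after its values were seen.

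RBM20, the splicing regulator of titin in heart muscle, was the one other RBM gene near 0 in untreated Ishikawa cells that rose, and is named there after its values were seen. Its Ishikawa counts were 0 and 4 without E2, 12 and 22 after 2 h, 12 and 13 after 4 h, and 25 and 24 after 8 h. The fitted log2 fold change at 8 h was 3.40 (SE 0.76, adjusted p = 0.00541) on these low counts. In T-47D cells, with between 375 and 671 counts, it rose by 0.35 at 8 h (SE 0.11, adjusted p = 0.0235).

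The partners and mRNA targets of the 2 proteins were read from a list of which 10 genes are reported here, all of them tested in both lines. In Ishikawa cells, 1 rose at 2 h, 2 rose and 1 fell at 4 h, and 3 rose and 2 fell at 8 h. In T-47D cells, 2 rose at 2 h, and 4 rose and 1 fell at both 4 h and 8 h. Of all tested Ishikawa genes, 2.61%, 7.66% and 12% rose and 1.74%, 6.6% and 10.1% fell at 2, 4 and 8 h. Of all tested T-47D genes, 4.9%, 11.1% and 15.4% rose and 4.4%, 10.4% and 14.3% fell. The median log2 fold change of the 10 genes lay between -0.04 and 0.12.

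CDKN1A, which encodes the cell cycle inhibitor p21 and is the best known mRNA bound by RBM38, fell in T-47D cells. It was at 53.1 and 50.5 CPM without E2, at 44.2 and 47.2 CPM after 2 h, at 44.5 and 43.0 CPM after 4 h, and at 40.9 and 40.0 CPM after 8 h. All treated libraries lay below the untreated ones, a separation that was not counted over all genes. The log2 fold changes were -0.18 (adjusted p = 0.0553), -0.24 (adjusted p = 0.00456) and -0.36 (adjusted p = 0.000110). In Ishikawa cells, CDKN1A was at 77.3 and 80.2 CPM at 0 h and between 64.8 and 78.6 after E2, and did not pass the test (-0.13 at 8 h, adjusted p = 0.234). The difference between the lines did not pass it either (adjusted p = 0.190 at 8 h).

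TP63, whose mRNA RBM38 destabilizes, fell in Ishikawa cells at 4 h (-0.48, adjusted p = 0.0325) and 8 h (-0.40, adjusted p = 0.0446). In T-47D cells, TP63 had only 6 to 53 counts, and its value at 8 h was -1.41 (SE 0.53, adjusted p = 0.0534). TP73 did not pass the test in either line, with values from -0.33 to 0.08. MDM2, a ubiquitin ligase, rose in Ishikawa cells at 8 h (0.25, adjusted p = 0.0118) and gave 0.07 in T-47D cells (adjusted p = 0.404). ELAVL1, the stabilizing protein HuR that acts with RBM38 on CDKN1A mRNA, ranged from -0.04 to 0.10 and passed no test. GDF15, a secreted stress-response factor, passed no test, with values between -0.08 and 0.37.

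The largest called changes on the list were those of MYC and PGR, both known estrogen targets. MYC was at 5.56 and 4.73 CPM in untreated T-47D cells and at 26.5 and 32.1 CPM at 2 h, a log2 fold change of 2.51 (SE 0.11, adjusted p = 1.64e-11). In Ishikawa cells, it did not pass at 2 h (0.15, adjusted p = 0.216) and rose at 4 h (0.50, adjusted p = 5.01e-05). PGR, the progesterone receptor, was at 1.37 and 0.987 CPM in untreated Ishikawa cells and at 13.5 and 18.4 CPM at 8 h, a log2 fold change of 3.75 (SE 0.18, adjusted p = 2.48e-09). In T-47D cells, PGR rose from 643 to 1367 mean CPM at 8 h (1.09, SE 0.04, adjusted p = 6.51e-13). E2F1, a cell cycle transcription factor, rose in T-47D cells at 8 h (0.63, adjusted p = 2.45e-07) and fell in Ishikawa cells (-0.25, adjusted p = 0.0175). HIF1A rose by 0.16 in T-47D cells at 8 h (adjusted p = 0.0161) and gave -0.05 in Ishikawa cells (adjusted p = 0.637).

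Other known estrogen targets responded in both lines, which checks the treatment. GREB1 rose by 1.65 at 8 h in Ishikawa cells (adjusted p = 1.73e-07) and by 2.15 in T-47D cells (adjusted p = 3.68e-15). TGFA rose by 1.88 and 1.04, while TFF1 rose by 1.70 in T-47D cells and had no counts in any Ishikawa library.

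**Figure D4:**
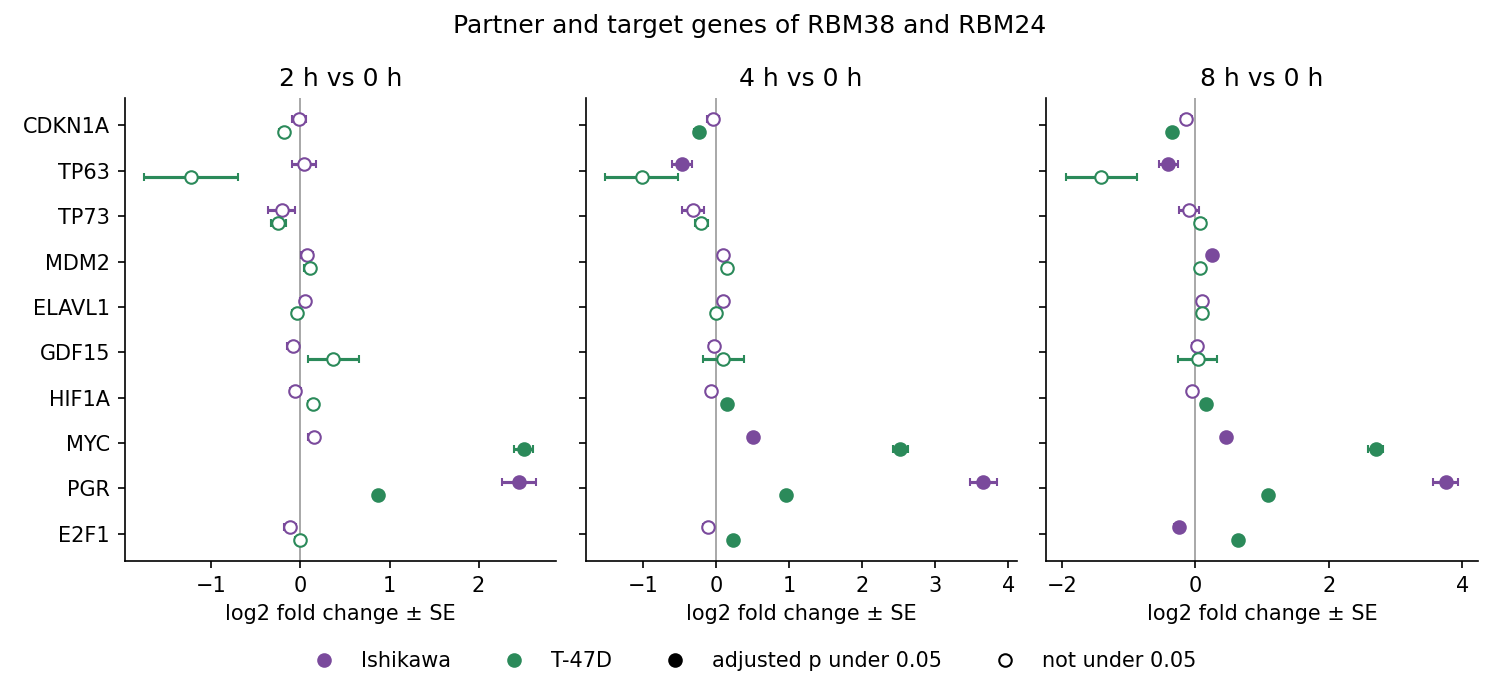
Log2 fold change with its standard error of the 10 partner and target genes at 2, 4 and 8 h against 0 h, Ishikawa in purple and T-47D in green, filled where the adjusted p was under 0.05. MYC in T-47D cells and PGR in both lines stand far to the right, CDKN1A in T-47D cells lies left of 0 at every time, and TP63 in T-47D cells carries wide bars. MYC and TP63 at 4 h in Ishikawa cells (0.50 and -0.48) and E2F1 at 8 h in T-47D cells (0.63) are among the other filled points away from 0.

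Other proteins that bind AU-rich elements were counted in the same way. Of 9 tested, edgeR called 2 at each time in Ishikawa cells. In T-47D cells, 2, 3 and 3 were called. Of all genes, 4.35%, 14.3% and 22.1% were called in the Ishikawa contrasts and 9.3%, 21.5% and 29.7% in the T-47D contrasts. The 2 of 9 at 8 h in Ishikawa cells lay at the share of all genes. In the other contrasts the list share of 22.2% or 33.3% lay above it, which rests on 2 or 3 genes and was not tested. The medians of the list lay between -0.042 and 0.057. ZFP36L1, which promotes decay of such mRNAs, fell at 2 h from 386 and 419 to 222 and 228 CPM in Ishikawa cells (-0.84, SE 0.06, adjusted p = 3.24e-07) and from 201 and 212 to 145 and 155 CPM in T-47D cells (-0.46, SE 0.05, adjusted p = 2.07e-06). ZFP36L2, of the same family, fell by 0.79 in T-47D cells (SE 0.05, adjusted p = 4.52e-09) and gave -0.04 in Ishikawa cells (adjusted p = 0.826). TIAL1 rose by 0.30 at 8 h in Ishikawa cells (adjusted p = 0.00104) and by 0.19 at 4 h in T-47D cells (adjusted p = 0.0167).

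Other tissue-restricted splicing regulators gave 0, 3 and 5 calls after 2, 4 and 8 h among the 17 tested in Ishikawa cells. Among the 16 tested in T-47D cells, they gave 2, 5 and 7. The shares of all genes called were 4.35%, 14.3% and 22.1% in Ishikawa and 9.3%, 21.5% and 29.7% in T-47D cells. The medians lay between -0.035 and 0.13. ESRP2, an epithelial splicing regulator, fell by 0.56 at 8 h in Ishikawa cells (adjusted p = 0.000935) and MBNL2 by 0.51 at 4 h (adjusted p = 0.000324). MBNL3 rose at 8 h in both lines (0.32, adjusted p = 0.0140, and 0.29, adjusted p = 0.0224), and MBNL1 rose by 0.34 in T-47D cells (adjusted p = 0.000179). The 0 called at 2 h in Ishikawa cells by edgeR compares with 2 at an unadjusted p under 0.05 and 0 by DESeq2. PTBP3 (0.26 in Ishikawa cells at 8 h, 0.19 in T-47D cells at 4 h), RBM20 in Ishikawa cells (2.75 at 4 h), ESRP1 (-0.15) and MBNL2 (0.20) at 2 h in T-47D cells, and CELF3 (-1.99, adjusted p = 0.00206, on 7 to 33 counts) and RBFOX2 (-0.16, adjusted p = 0.0199) at 8 h in T-47D cells were also called and are named after their values were seen.

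Muscle genes, which RBM24 accompanies in the heart, were in part too low to test. Of 30 on the list, the filter on low counts kept 19 in Ishikawa cells but 13 in T-47D cells. MYOD1, MYOG, MYF5 and MYF6, the transcription factors that define the muscle lineage, were under the filter in both lines. At 2 h, edgeR called 0 in both lines (4 and 3 at an unadjusted p under 0.05, and 1 and 0 by DESeq2, in Ishikawa and T-47D cells). At 4 h, 2 were called in each line, and at 8 h there were 4 in T-47D and 3 in Ishikawa cells. With 29.7% of all T-47D genes and 22.1% of all Ishikawa genes called at 8 h, and 21.5% and 14.3% at 4 h, these counts were near or below the shares of all genes. The medians of the tested genes lay between -0.23 and 0.085. TTN fell in Ishikawa cells (-0.47 at 4 h, adjusted p = 0.00696), and MEF2D fell in both lines (-0.35, adjusted p = 0.0261, and -0.39, adjusted p = 6.40e-05, at 8 h). In T-47D cells, TNNT1 fell by 0.32 (adjusted p = 9.53e-05), and TNNI2, with a mean of 75.3 counts, rose by 0.83 (adjusted p = 0.0330). CKM in Ishikawa cells (2.64 at 8 h, from 0 to 26 counts) and MEF2A in T-47D cells (-0.22 at 8 h) were also called and are named after their values were seen.

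Genes with any part within 500 kb of the start of RBM24 were compared because position played no role in the choice. All 5 were tested in both lines, with 1 called at each time in Ishikawa cells, 3 at each time in T-47D cells, and medians between 0.037 and 0.30. Called among all genes were 4.35%, 14.3% and 22.1% for Ishikawa against 9.3%, 21.5% and 29.7% for T-47D cells. In Ishikawa cells, 1 of 5 (20%) was near the share of all genes at 8 h and above it at 2 h and 4 h. The 3 of 5 (60%) in T-47D cells lay above it at each time. With only 5 genes, this was not tested. FAM8A1, 319 kb downstream, rose in both, from 47.4 and 39.8 CPM at 0 h to 77.8 and 71.9 at 8 h in Ishikawa cells (0.78, SE 0.08, adjusted p = 1.25e-05) and from 67.0 and 59.7 to 77.5 and 88.6 in T-47D cells (0.39, SE 0.07, adjusted p = 0.000637). CAP2, the nearest at 112 kb and an actin regulator of muscle, rose in T-47D cells (0.53, SE 0.05, adjusted p = 2.11e-07) and gave -0.14 in Ishikawa cells (adjusted p = 0.405). KIF13A, a kinesin, rose by 0.30 in T-47D cells (adjusted p = 5.96e-05). STMND1 and NUP153 passed no test, with values at 8 h between -0.16 and 0.83.

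Around RBM38, 11 genes were listed, of which 4 passed the filter on low counts in T-47D and 3 in Ishikawa cells. In Ishikawa cells, edgeR and DESeq2 called 0 at each time, with 1, 0 and 1 at an unadjusted p under 0.05 at 2, 4 and 8 h. In T-47D cells, 0 were called at 2 h by either tool (3 at an unadjusted p under 0.05), and 2 fell at 4 h (1 called by DESeq2) and 2 at 8 h, where 4.4%, 10.4% and 14.3% of all T-47D genes fell at 2, 4 and 8 h. The medians lay between -0.42 and -0.054 over both lines. BMP7, a secreted growth factor 125 kb upstream, fell from 5.31 and 5.04 CPM to 2.10 and 2.72 CPM at 8 h (-1.10, SE 0.16, adjusted p = 3.62e-05). PMEPA1, a regulator of TGF-β signaling 320 kb away, fell by 0.50 (SE 0.05, adjusted p = 2.68e-07). NKILA, which overlaps PMEPA1 on the other strand so that reads of the 2 may not be separable, fell by 0.49 at 4 h (adjusted p = 0.0426). RAE1, the closest tested gene at 40.2 kb, passed no test.

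**Figure D5:**
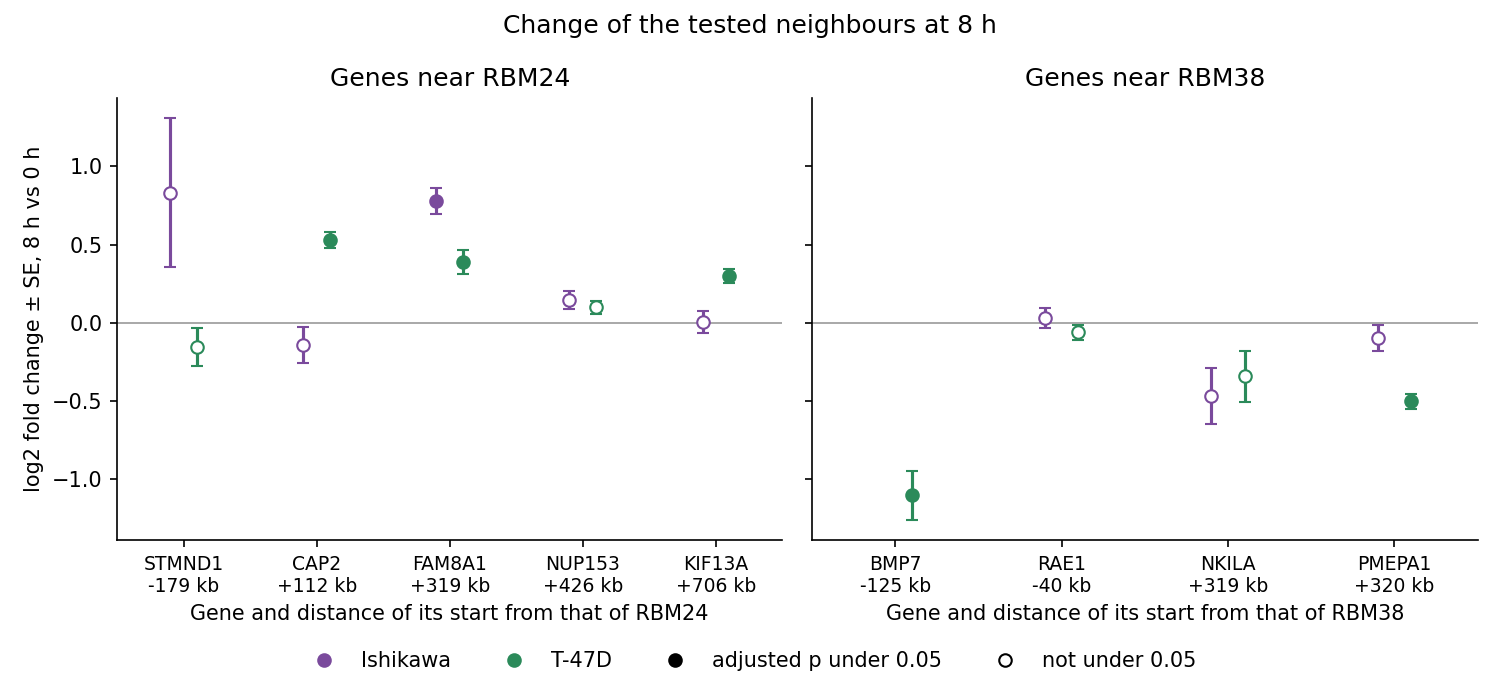
Log2 fold change at 8 h against 0 h, with its standard error, of the tested genes near RBM24 (left) and RBM38 (right), in order of the distance between gene starts, filled where the adjusted p was under 0.05. Near RBM24 the filled points lie above 0 (FAM8A1 in both lines, CAP2 and KIF13A in T-47D cells), and near RBM38 they lie below 0 (BMP7 and PMEPA1 in T-47D cells).

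The genes whose log2 CPM moved most like RBM24 differed by line. Over the 8 T-47D libraries, they were THBS1 (r = 0.998), STC1, MYC, SLC20A1 and IRS2 (r = 0.995). Over the 8 Ishikawa libraries, the closest included PPM1K (r = 0.992), CRYAA, FGF19 and TGFA (r = 0.988). Over all 16 libraries, where much of the range is the difference between lines, they were CBFA2T3 (r = 0.974), TRPC6, CISH, FHL2 and BAG5 (r = 0.961). RBM38 itself had r = -0.79 with RBM24 over 16 libraries, -0.70 in T-47D cells and 0.02 in Ishikawa cells. The genes most like RBM38 were TCF3 (r = 0.995), PTPN9, C1orf174, RPL29 and TUSC1 over 16 libraries. They were ECI1 (r = 0.982), C1orf226, TRRAP, VCP and PLBD2 in Ishikawa cells and AKIP1 (r = 0.951), DPCD, MRPL41, SDHAF2 and GADD45A in T-47D cells. These Pearson correlations are a description, since the libraries share time points, library depth and, across lines, cell identity.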

How the data were processed

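Per the labels and the study's methods, poly(A) RNA libraries made with a directional kit were aligned to hg19 with HISAT2 and processed with SAMtools, and reads were assigned to genes with featureCounts. DESeq2 is also named. Versions, strand setting and treatment of multiply aligned reads are not given in the sources used here. The authors deposited raw counts per gene, with no normalization, in 1 table per cell line. The study's single-cell data were not used here.

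Genes were filtered by filterByExpr, scaled by TMM and fitted per line with time point as a factor and no block in edgeR 4.0.16 (R 4.3.3), using quasi-likelihood F tests with Benjamini-Hochberg adjustment over 15787 genes in Ishikawa cells, 15594 in T-47D cells and 17090 in the joint fit of both lines. A gene was called at an adjusted p under 0.05. Each standard error was derived from the log2 fold change and its F statistic. CPM used library sizes scaled by TMM within each line, and log2 CPM a prior count of 2. CPM values and correlations over both lines were therefore not scaled jointly. Count ratios carry exact binomial intervals. The script was tested on simulated data with 200 genes changed by 1 log2 unit, of which it recovered 81.5% among 15610 tested genes in Ishikawa cells and 84% among 15412 in T-47D cells at 2 h against 0 h. Of its calls there, 8.43% and 7.18% were false.

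The 2 genes and the gene lists were chosen with earlier results of these data known. Results on some genes are not reported here. Named from each list were the reported partner and estrogen control genes and, elsewhere, up to 3 called genes per line with the largest change and a mean of at least 50 counts, called neighbours, and the 5 genes most alike to each paralog. Positions and coding sequences were taken from GENCODE on GRCh37, in which 90.4% of 26364 symbols were found, 22494 directly and 1351 by an older symbol. Alternatives were DESeq2 1.42.0, RLE scaling, omission of the filter, a minimum of 10 counts in every library, a replicate block, only the time points compared, counts divided by 2, 4 h and 8 h as 1 group, and leaving out each library. A crossed replicate block in Ishikawa cells was added after seeing the data. Replicate numbers did not pair the samples (correlations of deviations from -0.11 to 0.05 in Ishikawa cells and -0.05 to 0.06 in T-47D cells). Replicates of each time point differed by more than sampling noise (chi-square per gene from 3.70 to 11.4), so none was counted as 1 library.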

Additional observations from a re-analysis of the deposited data

Results flagged for a closer look

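RBM38 did not pass the test for a difference in response between the lines at any time, so a difference was not shown. Of 39 named genes tested in both lines, 17 had a T-47D minus Ishikawa difference in log2 fold change that passed the edgeR interaction test (adjusted p under 0.05) at 1 or more of 3 times. Of all genes in the joint fit, 2.67%, 6.03% and 10% passed at 2, 4 and 8 h. Many of the 39 were named for a large called change in 1 line, so their count says nothing about the lists. Each is given at the time where its adjusted p was lowest. Among the partner and target genes, the difference was 2.37 for MYC at 2 h (adjusted p = 1.95e-10), -2.66 for PGR at 8 h (adjusted p = 2.51e-09) and 0.88 for E2F1 at 8 h (adjusted p = 1.86e-06). Of the estrogen controls, GREB1 gave 1.17 at 2 h and TGFA -0.84 at 8 h. Of the RNA-binding proteins, the differences were 0.39 for ZFP36L1 and -0.73 for ZFP36L2 at 2 h, 0.34 for MBNL1 and 0.69 for MBNL2 at 4 h, and 0.59 for ESRP2, -0.49 for RBM18 and -3.04 for RBM20 at 8 h, the last on Ishikawa counts of at most 25. The neighbours gave 0.67 for CAP2 and 0.29 for KIF13A near RBM24 and -0.41 for PMEPA1 near RBM38, all at 8 h. AEN gave 0.93 and TTN 0.48 at 8 h. The cell line and any handling difference cannot be told apart.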

How the results depend on the processing

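Under alternatives other than leaving out a library, 102 of 106 tested values kept their direction and side of the threshold, the 46 RBM24 values given without a test kept their sign and moved by less than the spread between replicates, and 46 of 49 counts of called list genes stayed within 1.5 times. RBM38 in T-47D cells at 2 h passed the threshold with DESeq2 (-0.26, adjusted p = 0.0490), without a filter (-0.26, adjusted p = 0.0323) and with the replicate block (-0.27, adjusted p = 0.0360), which changed no other call of the paralogs. At 4 h, it lost its call with 4 h and 8 h as 1 group (-0.19, adjusted p = 0.0858). The called genes of all lists together numbered 17 without a filter at 2 h in Ishikawa cells (9 with it), 22 in T-47D cells at 2 h (14 with it), and 36 for Ishikawa 4 h with 4 h and 8 h as 1 group (21 apart). RBM24 in Ishikawa cells has no value with at least 10 counts in every library, since its 0-h libraries hold 2 and 4.

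Leaving out each library in turn, the log2 fold change of RBM24 in Ishikawa cells ranged from 4.66 to 5.60 at 2 h, 4.79 to 5.90 at 4 h, 5.04 to 5.98 at 8 h and -0.32 to 0.64 for 8 h against 4 h, the last turning to -0.32 and -0.070. In T-47D cells, it ranged from 1.89 to 2.06, 1.96 to 2.13 and 2.09 to 2.27 against 0 h. RBM38 in Ishikawa cells ranged from -0.082 to -0.0033 at 2 h, -0.032 to 0.059 at 4 h (-0.021 and -0.032 where it turned), -0.078 to 0.11 at 8 h (-0.017 and -0.078) and -0.087 to 0.098 for 8 h against 4 h (-0.036 and -0.087). In T-47D cells, it ranged from -0.33 to -0.18 at 2 h (adjusted p from 0.0459 to 0.380) and -0.31 to -0.17 at 4 h (adjusted p from 0.0338 to 0.279). List calls ranged from 7 to 20 at 2 h and 18 to 39 at 8 h in Ishikawa cells, and from 9 to 18 at 2 h in T-47D cells. The low end at 8 h came without 0-h replicate 2 and the high end at 2 h without 0-h replicate 1. The causes were not tested. With 2 replicates per time point and 6 RBM24 counts at 0 h in Ishikawa cells, depth limits the size of its fold change.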
